A study of Mus musculus with 12 samples.

Results

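Splenic T cells of mice that lack miR-214 (miR-214-/-) were compared with those of wild-type (WT) mice after both had received angiotensin II (Ang II), the peptide hormone that raises blood pressure in this model of hypertension. The comparison rests on 6 of the 12 poly(A) RNASeq libraries, 3 from miR-214-/- mice and 3 from WT mice, and it covers every gene with enough reads in those libraries, which were 16215 of the 49315 genes in the count table. All mice were 12-week-old males that carried an osmotic minipump for 14 days. Ang II was given at 490 ng/kg per day, and the sham groups (3 WT and 3 miR-214-/- mice) received the vehicle alone and serve here only as the background for the effect of genotype. The deletion is constitutive, so that miR-214 was absent from every tissue of the knockout mice and not from T cells alone. The study describes negative selection for splenic T cells used in transfer and culture, and its sequencing methods do not name how the T cells were isolated. Negative selection leaves behind any cell that escapes the depleting antibodies. The study describes its WT mice as littermates. Their strain is not given for the sequenced mice in the sources used here, and a backcross of the knockout line is described for transfer experiments only.

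Total counts ranged from 22791716 to 27928149 (median 27552578) in the WT Ang II libraries and from 23026179 to 29605988 (median 23840899) in the miR-214-/- Ang II libraries. Markers of T cells were abundant in all 6 libraries: the 14 T cell markers summed to between 4567 and 5163 CPM (counts over a library size corrected for composition) in WT and to between 5228 and 6756 CPM in miR-214-/-. Transcripts of other spleen cells were present as well. The 19 red-cell precursor markers reached between 2612 and 6430 CPM in WT and between 792 and 5038 CPM in miR-214-/-, and the 13 B cell markers between 1598 and 4673 CPM in WT and between 553 and 3353 CPM in miR-214-/-. The IgM heavy chain, Ighm, made up most of the B cell sum in each library, so that sum does not describe the other B cell markers. Libraries stood apart within both groups. The chi-square of the counts of a pair of libraries over genes, per degree of freedom, was 54.7 and 52.1 between WT replicate 1 and the other two WT libraries, which differed from each other by 16.7, and among the miR-214-/- libraries it was 64.6 between replicates 1 and 2, 45.4 between 1 and 3 and 39.95 between 2 and 3. Replicate 1 of miR-214-/- lay with the WT libraries in its levels of cell-cycle and naive T cell genes. Replicate 2 was high in most B cell markers, Ighm excepted, and in markers of neutrophils. Each of the 6 libraries was therefore left out in turn, with the count filter run anew, so the genes tested in a list could differ. Changed medians are given for many lists, but not for every list or every library left out. The libraries described above were singled out after their values were seen. A recount without one of them therefore describes how far a list rests on it and is not a test of that list.

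MicroRNAs are short RNAs that pair, through bases 2 to 8 from their 5′ end (the seed), with sites in messenger RNAs, mostly in the 3′ untranslated region (UTR), and lower the stability or translation of those messages. miR-214 and its neighbour miR-199a are cut from a long non-coding RNA, Dnm3os, which is transcribed opposite to the gene of the GTPase dynamin 3. In T cells miR-214 is known for rising after activation. Mir214 (chr1:162223368-162223477, plus strand, GRCm38) had 0 counts in all 12 libraries, as did Mir199a-2, and an observed 0 leaves room for as many as 3 counts in a library. Dnm3os had 1 count over the 12 libraries and Dnm3 between 5 and 25 counts in each. Poly(A) libraries do not hold mature miRs, so the genotype could not be checked at the deleted gene.

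The mature sequences from RefSeq (GRCm38.p6) are shown because they define which messages could be released from repression. Both arms come from the plus strand of chromosome 1, miR-214-3p from chr1:162223438-162223459 and miR-214-5p from chr1:162223397-162223418. Another miR, miR-761 on chromosome 4, has the same seed as miR-214-3p and is encoded elsewhere, outside the deletion. Capitals mark the seed.
miR-214-3p: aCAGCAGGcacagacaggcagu
miR-214-5p: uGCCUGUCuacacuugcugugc
miR-761: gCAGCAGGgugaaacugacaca

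No gene passed the test. Under edgeR's quasi-likelihood test, with genes called when the Benjamini-Hochberg adjusted p was under 0.05 and the log2 fold change beyond 1 in either direction, 0 of 16215 genes (0%) were called between miR-214-/- and WT under Ang II, and the smallest adjusted p was 0.569. An unadjusted p under 0.05 was reached by 1388 genes (8.56%), of which 714 (4.4%) were higher and 674 (4.16%) lower in miR-214-/-. DESeq2's Wald test called 21 genes, 4 higher and 17 lower, which is 0.143% of the 14722 genes it gave an adjusted p. Log2 fold changes, here always miR-214-/- minus WT, were above 0 for 50.2% of genes and below 0 for 49.8%, with a median of 0.00. In 1299 genes (8.01%) all 3 miR-214-/- libraries lay above all 3 WT libraries, and in 963 genes (5.94%) all 3 lay below. These shares are the background for every count of genes without overlap under Ang II. With 3 mice in each arm the smallest p of an exact permutation test on 1 gene is 0.1. The values below are therefore descriptions of the libraries, and none of the genes is called by edgeR unless the text says so.

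**Figure D1:**
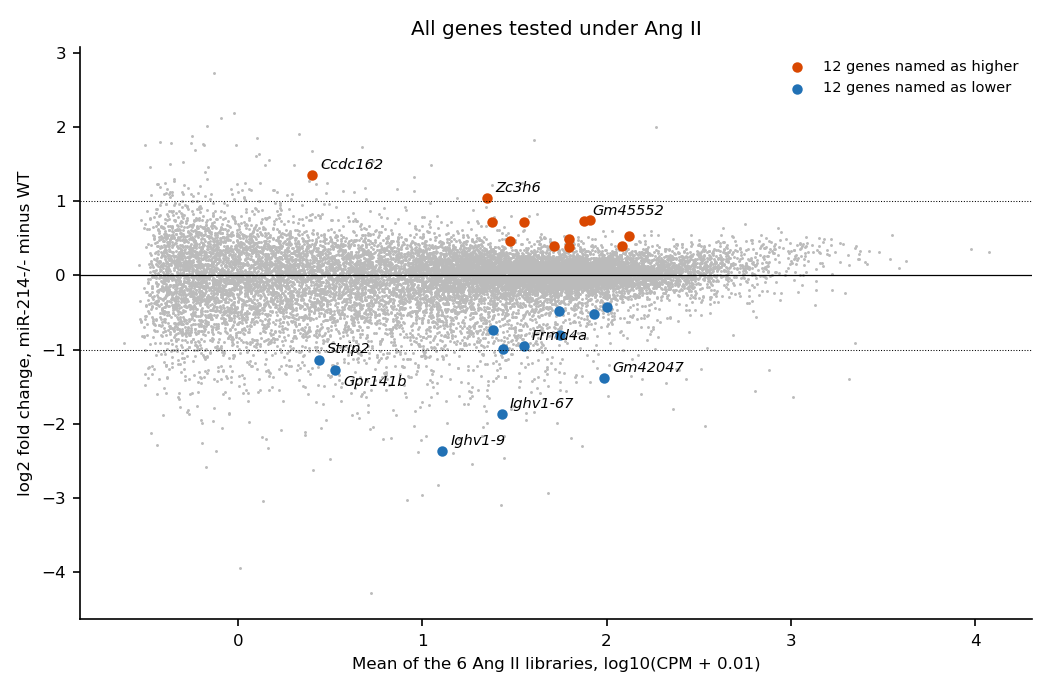
Each grey point is 1 of the 16215 genes tested, with the mean level of the 6 Ang II libraries as log10(CPM + 0.01) on the x axis and the log2 fold change of miR-214-/- minus WT on the y axis; dotted lines mark a log2 fold change of 1 in each direction. The 12 genes named as higher (orange) lie between 0.39 and 1.35 and the 12 named as lower (blue) between -2.37 and -0.43, and none of them was called by edgeR.

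In each direction 12 genes are named here, those with the smallest unadjusted p whose groups did not overlap, and each has an edgeR adjusted p of 0.569. Among those higher in miR-214-/-, Zc3h6, which encodes a CCCH zinc finger protein, had 12.7, 15.3 and 15.9 CPM in the WT libraries and 33.6, 27.9 and 28.6 CPM in the miR-214-/- libraries, a log2 fold change of 1.04 (SE 0.14). All 3 miR-214-/- values were above all 3 WT values, and it was 1 of the 4 genes that DESeq2 called as higher. Cirbp, the cold-inducible RNA-binding protein, had 55.7, 68.4 and 59.9 CPM in WT and 113, 97.4 and 96.4 CPM in miR-214-/- (log2 fold change 0.74, SE 0.10). Gzma, a serine protease of cytotoxic granules, had 24.9, 25.0 and 31.3 CPM against 43.7, 45.9 and 44.0 CPM (log2 fold change 0.72, SE 0.12). The spread of Gzma within each group was small beside the gap between them. Gm45552, annotated as an antisense transcript on chromosome 7, had 53.4, 61.9 and 54.3 CPM in WT and 88.8, 95.2 and 97.1 CPM in miR-214-/- (log2 fold change 0.73, SE 0.08). The strand setting of the counting is not given in the sources used here, so its reads and those of a gene on the opposite strand cannot be told apart.

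Of the metabolic enzymes in this group, Pdk1, the kinase that inhibits pyruvate dehydrogenase and so limits the entry of pyruvate into mitochondria, had 98.6, 109 and 108 CPM in WT and 135, 143 and 135 CPM in miR-214-/- (log2 fold change 0.39, SE 0.07). Tk2, the mitochondrial thymidine kinase, had 54.9, 55.3 and 51.9 CPM against 68.9, 74.1 and 68.9 CPM (log2 fold change 0.39, SE 0.07). Both differences were modest in size and uniform over the libraries. Dgke, a diacylglycerol kinase, had a log2 fold change of 0.46 and Zkscan8, a zinc finger transcription factor, one of 0.40. The other 4 were the protein-coding genes 4930523C07Rik (log2 fold change 0.53), Gm8369 (0.49) and Ccdc162 (1.35), and the long non-coding RNA BC043934 (0.72). Ccdc162 had the lowest counts of the 12, at 1.43 ± 0.46 CPM (SD, n = 3) in WT and 3.63 ± 0.42 CPM in miR-214-/-.

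Among the genes lower in miR-214-/-, Frmd4a, which encodes a FERM-domain scaffold of cell junctions and polarity, had 46.9, 50.6 and 43.0 CPM in WT and 26.0, 24.8 and 21.4 CPM in miR-214-/-, a log2 fold change of -0.96 (SE 0.11). All 3 miR-214-/- values were close together and below the lowest WT value. The long intergenic RNA Gm42047 had 115, 170 and 138 CPM in WT and 63.9, 43.7 and 53.9 CPM in miR-214-/- (log2 fold change -1.38, SE 0.18). Itsn1, the endocytic scaffold intersectin 1, had 44.4, 36.3 and 29.1 CPM against 17.3, 22.1 and 15.7 CPM (log2 fold change -0.99, SE 0.20). For Itsn1 the WT libraries spread more widely than the miR-214-/- libraries, and the groups still did not overlap. Gcnt1, the enzyme that branches O-glycans on T cell surface proteins, had 31.5, 30.3 and 28.6 CPM in WT and 22.0, 17.0 and 15.3 CPM in miR-214-/- (log2 fold change -0.73, SE 0.16). Map2k3, the kinase that activates p38, had 60.7, 69.3 and 64.3 CPM against 49.5, 44.6 and 44.2 CPM (log2 fold change -0.49, SE 0.09).

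The remaining genes of this group were Dennd4a, an exchange factor for Rab GTPases (log2 fold change -0.43), Nudt4, which removes phosphates from inositol pyrophosphates (-0.53), Gm49339 (-0.80), Strip2, a partner of striatin (-1.14), Gpr141b (-1.27), and the immunoglobulin heavy chain segments Ighv1-67 (-1.88) and Ighv1-9 (-2.37). Ighv1-9 had 17.3, 16.6 and 30.6 CPM in WT and 4.30, 5.75 and 2.36 CPM in miR-214-/-. Immunoglobulin segments have near-identical copies, so that reads may have been lost or split among them in counting, and they are products of B and plasma cells and not of T cells.

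**Figure D2:**
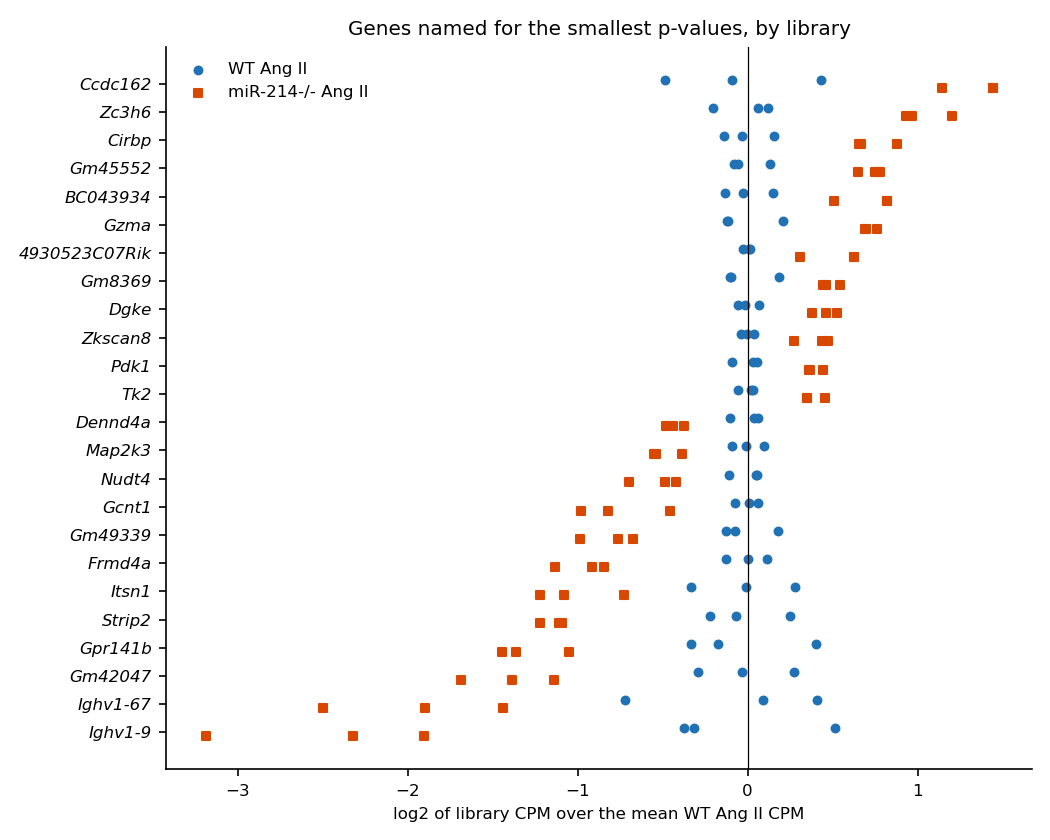
The 24 named genes, with each Ang II library as the log2 ratio of its CPM to the mean CPM of the 3 WT Ang II libraries (x axis); circles are WT libraries and squares miR-214-/- libraries. The squares lie wholly to one side of the circles in every gene, which the naming rule required, and the points farthest from 0 belong to Ighv1-9 and Ighv1-67, with log2 fold changes of -2.37 and -1.88.

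Of the 21 genes called by DESeq2, 8 were among these 24. Without the fold limit, 33 genes had a DESeq2 adjusted p under 0.05. These included Frmd4a (1.89e-07), Gm45552 (9.31e-06), Cirbp (0.000609) and Gzma (0.00376), which missed only the fold limit in DESeq2. The 4 genes DESeq2 called as higher were Zc3h6, Ccdc162, Rpgrip1 (log2 fold change 1.03 and adjusted p 0.0435 by DESeq2) and the processed pseudogene Npm3-ps1 (2.74 and 0.0427). Rpgrip1, a protein of the ciliary base, had 7.03, 11.7 and 11.6 CPM in WT and 15.3, 22.9 and 24.0 CPM in miR-214-/-. Of the 17 called as lower, 5 were immunoglobulin variable segments (Ighv1-9, Ighv1-59, Ighv1-67, Ighv1-81 and Igkv5-45). Others are known from myeloid cells, namely Mcpt4, a mast cell chymase, at 1.69, 3.82 and 5.76 CPM in WT and 1.18, 0.615 and 0.786 CPM in miR-214-/-, Tlr11, a receptor for microbial profilin (log2 fold change -1.64), and Clec9a, a receptor of cross-presenting dendritic cells. The remaining ones were Gm42047, Itsn1, Strip2, Gpr141b, Ccne2, Rab3il1, Dusp8, Cacna1g and Fn3k. Fn3k, the kinase that removes sugar adducts from proteins, had 6.78, 14.3 and 7.41 CPM in WT and 3.28, 4.59 and 1.75 CPM in miR-214-/-. These DESeq2 genes beyond the 24 were named after their values were seen.

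A message released from miR-214 would carry a match to the seed, so 3′ UTRs were searched on the transcript strand for CCTGCTG, the complement of bases 2 to 8 of miR-214-3p. Of 12975 tested genes with an annotated 3′ UTR, 3425 (26.4%) held at least 1 match. Their median log2 fold change was -0.01, as was that of genes without a match, and 48.6% of genes in each set were above 0. Groups did not overlap, with miR-214-/- higher, in 7.18% of genes with a match and 7.77% of genes without. UTRs with a match were longer, with a median of 2235 bases against 1043. The complement of the miR-214-5p seed, GACAGGC, was found in 1450 genes (11.2%), with a median log2 fold change of -0.01 in genes with and without it. Since edgeR called 0 of all genes tested, its calls cannot tell genes with a match from those without.

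Among the 24 named genes, 3 of the 10 higher genes with an annotated 3′ UTR (Pdk1, Tk2 and Zkscan8) and 2 of the 8 lower ones (Itsn1 and Gcnt1) held the miR-214-3p match. These sites are shown, read on the strand of the message from GRCm38, with the match in capitals, beside those of Camk2d and Qk, published targets whose groups did not overlap.
Pdk1 (chr2:71901802-71901824, plus strand): aatatacaccgtataCCTGCTGt
Tk2 (chr8:104227814-104227836, minus strand): gctgttccccaccgcCCTGCTGc
Zkscan8 (chr13:21515474-21515496, minus strand): gacgggtggtaggacCCTGCTGa
Itsn1, first of 3 (chr16:91917983-91918005, plus strand): aaggtgctggcgcccCCTGCTGc
Gcnt1 (chr19:17328582-17328604, minus strand): gtaaataatttccttCCTGCTGt
Camk2d (chr3:126845458-126845480, plus strand): tctgcattcactattCCTGCTGc
Qk (chr17:10209552-10209574, minus strand): acctgaccatgcctgCCTGCTGa
All of these sites share the 7 matched bases and differ in the flanks. The genes that hold them lay on both sides of 0.

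Of 14 published direct targets of miR-214 that were looked up, 11 held a match, and 0 were called by edgeR, as for all genes. Their median log2 fold change was -0.12, with 4 above 0 and 10 below (median -0.06 without WT replicate 1). Groups did not overlap in 2 higher and 2 lower ones, where 8.01% and 5.94% of all genes did so. Camk2d, a calcium/calmodulin kinase, had 59.6, 61.2 and 58.0 CPM against 67.4, 69.7 and 79.2 CPM (log2 fold change 0.28, SE 0.08), and Mapk8, the kinase JNK1, 31.8, 32.7 and 33.7 CPM against 33.9, 37.3 and 40.1 CPM (named after its values were seen). Qk, the RNA-binding protein quaking, had 130, 122 and 138 CPM against 110, 102 and 119 CPM (-0.24, SE 0.09), and Ctnnb1, the beta-catenin of Wnt signaling and cell adhesion, 287, 300 and 309 CPM against 250, 263 and 271 CPM (-0.19, SE 0.08). Camk2d and Mapk8 were therefore above, and Qk and Ctnnb1 below, WT in all 3 miR-214-/- libraries, each by a small amount, and none passed the test.

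Genes of the cell cycle were lower in miR-214-/- as a list. All 28 mitosis genes (kinesins, centromere proteins, mitotic kinases and their partners) had a log2 fold change below 0, with a median of -0.81 beside 0.00 for all genes tested. Groups did not overlap in 11 of the 28, beside 5.94% of all genes, and 0 were called. Mki67, the proliferation antigen Ki-67, had 611, 606 and 639 CPM in WT and 483, 288 and 285 CPM in miR-214-/- (log2 fold change -0.81, SE 0.22). Kif11, the motor that separates spindle poles, had 86.5, 95.2 and 98.2 CPM against 75.3, 38.4 and 45.9 CPM, and Cenpe, the kinetochore motor, 57.5, 58.5 and 61.2 CPM against 49.0, 28.2 and 30.5 CPM. In each of these genes replicates 2 and 3 of miR-214-/- were at about the same low level and replicate 1 lay between them and WT.

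The 24 DNA replication genes were likewise all below 0, with a median log2 fold change of -0.70, and 1 of them did not overlap, a share of the list under the 5.94% of all genes. That gene was Rfc3, a subunit of the clamp loader (26.0 ± 2.12 CPM in WT and 17.1 ± 5.13 CPM in miR-214-/-, SD, n = 3 in each). Mcm5, a subunit of the replicative helicase, had 172, 230 and 220 CPM in WT and 182, 95.7 and 104 CPM in miR-214-/-. Rrm2, the small subunit of ribonucleotide reductase, had 113, 197 and 181 CPM against 131, 58.1 and 53.6 CPM, and Pcna, the sliding clamp, 183, 246 and 231 CPM against 222, 150 and 150 CPM. Here miR-214-/- replicate 1 was at the level of the WT libraries. Of the 23 cyclins, E2F factors and Cdk inhibitors of the G1/S step, 20 were below 0 (median -0.31) and 10 did not overlap, all lower in miR-214-/-, beside 5.94% of all genes. Ccne2, cyclin E2, had 22.3, 36.1 and 35.9 CPM in WT and 19.1, 12.2 and 9.56 CPM in miR-214-/-, and was called by DESeq2 (log2 fold change -1.22, adjusted p 0.0302). Rb1, the pocket protein that restrains E2F, had a log2 fold change of -0.31, and Cdkn2c, the inhibitor p18, one of -0.67.

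Averaged over a list, the mean log2 CPM of the mitosis genes was 5.49, 5.84 and 5.85 in the WT Ang II libraries and 5.54, 4.44 and 4.54 in the miR-214-/- Ang II libraries. The DNA replication genes gave 5.74, 6.38 and 6.34 in WT and 6.06, 5.01 and 5.09 in miR-214-/-. Replicate 1 of miR-214-/- was thus within the WT range in both lists. How many of these genes separated the groups depended on which libraries were counted. Without miR-214-/- replicate 1, 28 of 28 mitosis genes and 24 of 24 replication genes lay below all WT libraries, where 18.2% of all genes did, with medians of -1.27 and -1.14. Without WT replicate 1, the WT library with the lowest level of both lists, the counts were 27 and 24, where 18.7% of all genes did, with medians of -0.91 and -0.83. Leaving out WT replicate 2 or 3 or miR-214-/- replicate 2 or 3 gave 11 and 1, beside 9.73%, 8.48%, 10% and 9.13% of all genes in that order. Since both libraries were chosen by the level of these genes, the larger counts restate that choice. Over the 6 leave-outs the medians ranged from -1.27 to -0.62 for mitosis and from -1.14 to -0.50 for replication. In sham the direction was the opposite. All 28 mitosis genes and all 24 replication genes were above 0 in miR-214-/-, with medians of 0.84 and 0.41, and 25 and 14 of them did not overlap, beside 5.39% of all genes in sham. The mean log2 CPM of the mitosis genes was 3.61 ± 0.20 (SD, n = 3) in WT sham and 4.42 ± 0.40 in miR-214-/- sham, against 5.72 ± 0.21 in WT Ang II and 4.84 ± 0.61 in miR-214-/- Ang II.

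**Figure D3:**
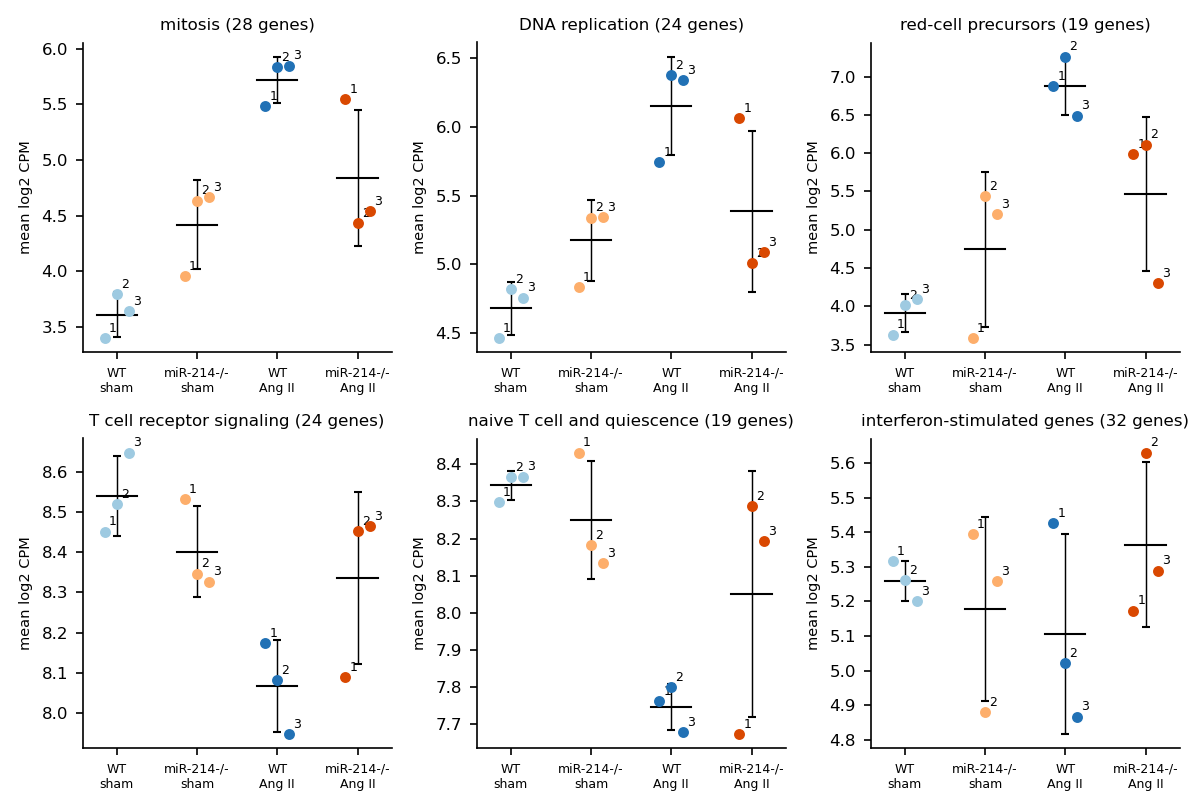
Mean log2 CPM over the tested genes of 6 lists (y axis, a separate range in each panel) in the 12 libraries, in 4 groups on the x axis; numbers are replicates, the line is the group mean and the bar its SD. In the mitosis panel the WT Ang II libraries sit at 5.49 to 5.85 and miR-214-/- Ang II at 5.54, 4.44 and 4.54, with replicate 1 beside WT; the T cell receptor panel shows the mirror image at 7.95 to 8.17 and 8.09, 8.45 and 8.46.

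Genes of T cell identity and signaling were higher in miR-214-/- by a smaller margin. In these bulk samples fewer cells of a type and less RNA per cell cannot be told apart. All 24 genes of T cell receptor signaling were above 0, with a median log2 fold change of 0.29, and 4 did not overlap, beside 8.01% of all genes. Sit1, an adaptor that dampens receptor signaling, had 31.8, 22.0 and 29.3 CPM in WT and 38.0, 58.0 and 48.9 CPM in miR-214-/- (log2 fold change 0.80, SE 0.20). Cd247, the zeta chain of the receptor complex, had 218, 239 and 205 CPM against 242, 333 and 305 CPM (0.42, SE 0.13), and Cd4, the co-receptor of helper cells, 363, 437 and 383 CPM against 435, 512 and 572 CPM (0.36, SE 0.13). Sit1 and Cd247 did not overlap, while miR-214-/- replicate 1 was within the WT range for Cd4. All 14 T cell markers were above 0 (median 0.35) and 6 did not overlap, beside 8.01% of all genes. Among these 6 were Bcl11b, the factor that keeps T cells committed (354, 352 and 309 CPM against 392, 491 and 513 CPM), and Trac, the constant region of the receptor alpha chain (399, 383 and 373 CPM against 414, 532 and 554 CPM).

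Variable segments of the T cell receptor lay on the same side. All 22 tested beta segments were above 0 (median 0.42, 8 without overlap), and 45 of 63 alpha segments were (median 0.38, 18 higher and 2 lower without overlap, beside 8.01% and 5.94% of all genes). The alpha median was 0.25 without miR-214-/- replicate 2 and 0.23 without replicate 3. Of 19 genes of naive and quiescent T cells 18 were above 0, with a median of 0.39. Tcf7, the factor of naive and memory T cells, had 997, 1105 and 1016 CPM in WT and 1114, 1449 and 1549 CPM in miR-214-/-. S1pr1, the receptor with which lymphocytes leave lymphoid organs, had 322, 355 and 341 CPM against 348, 553 and 587 CPM, and Klf7, a Krüppel-like factor, 35.7, 34.1 and 35.5 CPM against 41.3, 52.9 and 51.0 CPM. Again replicates 2 and 3 carried most of the difference. The list mean was 7.76, 7.80 and 7.68 log2 CPM in WT and 7.67, 8.29 and 8.19 in miR-214-/-, so that replicate 1 was at the lower end of the WT libraries. Counts of genes without overlap rested on it: with that library left out they were 22 of 24 receptor signaling genes, 16 of 19 naive genes and 13 of 14 T cell markers, where 20.9% of all genes lay above WT, against 4 to 10, 4 to 7 and 6 to 9 when another library was left out, beside 15.2%, 12.7% and 10.2% of all genes without WT replicates 1, 2 and 3 and 11.8% and 11.4% without miR-214-/- replicates 2 and 3. The library was singled out by its level of naive genes, so the count for that list restates the choice. The medians ranged over the 6 leave-outs from 0.21 to 0.38 for receptor signaling, from 0.23 to 0.54 for naive genes and from 0.27 to 0.48 for the T cell markers.

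Activation genes were divided. Of 22 genes of T cell activation and the immediate early response, 10 were above and 12 below 0 (median -0.07, and -0.08 to 0.04 over the 6 leave-outs). Without overlap were 4 in the higher and 3 in the lower direction, beside 8.01% and 5.94% of all genes. Dusp5, a phosphatase of nuclear ERK, had 25.5, 26.5 and 29.3 CPM in WT and 35.3, 35.5 and 40.0 CPM in miR-214-/- (log2 fold change 0.45, SE 0.10). Cd44, the hyaluronan receptor of activated and memory T cells, had 183, 145 and 179 CPM against 128, 119 and 123 CPM (-0.45, SE 0.11), and Myc, the growth factor-induced transcription factor, 104, 117 and 131 CPM against 92.5, 87.6 and 92.0 CPM (-0.37, SE 0.10). Cd44 and Myc were lower in all 3 miR-214-/- libraries, replicate 1 included. Junb, a subunit of AP-1, had a log2 fold change of 0.30.

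Of 18 cytotoxic effector genes 14 were above 0 (median 0.18), and 3 did not overlap, all higher in miR-214-/-, beside 8.01% of all genes. The median was 0.38 without WT replicate 1 and 0.07 without WT replicate 3. Beside Gzma, Hcst, the adaptor of the receptor NKG2D, had 41.1 ± 3.84 CPM in WT and 57.8 ± 10.5 CPM in miR-214-/- (SD, n = 3 in each). Prf1, perforin, overlapped at 57.7, 52.2 and 46.7 CPM against 56.0, 80.8 and 84.4 CPM. Natural killer cells share Gzma and Prf1, and 6 of the 7 tested NK markers were above 0 (median 0.18, but 0.52 without WT replicate 1, 0.04 without WT replicate 2, 0.31 without miR-214-/- replicate 2 and 0.12 without miR-214-/- replicate 3). The summed NK markers were between 148 and 203 CPM in WT and between 201 and 245 CPM in miR-214-/-, and their part in the cytotoxic genes was not tested. The 14 genes of regulatory T cells were split evenly (median -0.02, and -0.06 to 0.04 over the 6 leave-outs, 0 without overlap). Of the 12 checkpoint receptors 5 were above 0 (median -0.02, and -0.19 to 0.11 over the 6 leave-outs). Btla, an inhibitory receptor for HVEM, was the 1 of 12 without overlap (87.3, 112 and 103 CPM against 125, 129 and 146 CPM), near the 8.01% of all genes.

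Interferon-stimulated genes were mostly above 0. Of 32, 28 were above 0 (median log2 fold change 0.29), and 8 did not overlap, all higher in miR-214-/-, beside 8.01% of all genes. Ddx60, a helicase of the antiviral response, had 33.8, 29.9 and 28.8 CPM in WT and 39.7, 46.6 and 44.1 CPM in miR-214-/- (0.50, SE 0.11). Usp18, the protease that removes ISG15 and dampens interferon signaling, had 22.3, 21.6 and 20.8 CPM against 27.6, 40.7 and 33.2 CPM (0.65, SE 0.15), and Ifit2, an antiviral RNA-binding protein, 58.0, 63.3 and 54.2 CPM against 68.7, 92.7 and 83.4 CPM (0.48, SE 0.12). In these 3 genes replicate 1 of miR-214-/- was above all WT libraries too. The list mean nevertheless overlapped, at 5.43, 5.02 and 4.87 log2 CPM in WT and 5.17, 5.63 and 5.29 in miR-214-/-, with WT replicate 1 above miR-214-/- replicates 1 and 3. The list median was 0.48 without WT replicate 1 and 0.18 without miR-214-/- replicate 2, and the genes without overlap were 23 without WT replicate 1 (beside 15.2% of all genes) and 15 without miR-214-/- replicate 1 (beside 20.9%).

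Cytokines and chemokine receptors are of interest because the study follows T cells that infiltrate the tissue around vessels and promote fibrosis there. Of the 14 genes that the study names for T cells, 12 were tested, 6 were above and 6 below 0 (median 0.02), and all 12 overlapped between the groups. Over the 6 leave-outs that median ranged from -0.04 to 0.12. The study measured its cytokines in stimulated T cells, as mRNA and in part as protein, and its chemokine receptors as surface protein. No stimulation is described for the sequenced cells, so the values here do not repeat those measurements. Tgfb1, the fibrogenic cytokine, had 185, 147 and 156 CPM in WT and 149, 162 and 164 CPM in miR-214-/- (log2 fold change -0.04, SE 0.11). Ifng, interferon gamma, had 10.9, 11.6 and 8.30 CPM against 13.7, 6.95 and 10.9 CPM (0.04, SE 0.27), and Tnf 12.5, 12.7 and 9.49 CPM against 12.4, 10.2 and 9.39 CPM (-0.11, SE 0.18). The libraries of both groups were interspersed for all of these cytokines. Ccl5, a chemokine of effector T cells, differed by 0.23 (SE 0.39) and ranged from 61.8 to 163 CPM within WT alone. Il17a and Il9 had too few counts to be tested.

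The chemokine receptors of that set showed the same overlap. Log2 fold changes were 0.15 (SE 0.17) for Cxcr3, the receptor of type 1 effector cells, 0.08 (SE 0.16) for Ccr4, -0.00 (SE 0.28) for Ccr6, -0.12 (SE 0.35) for Ccr2 and -0.42 (SE 0.36) for Ccr1. Ccr2 shows the spread within groups, at 320, 120 and 183 CPM in WT and 161, 173 and 240 CPM in miR-214-/-. The 18 chemokine receptors together had a median of -0.06. Over the 6 leave-outs it ranged from -0.18 without WT replicate 2 to 0.24 without WT replicate 1. It was -0.13 without miR-214-/- replicate 2 and 0.06 without miR-214-/- replicate 1. Of all 18 receptors 8 were above and 10 below 0. Those without overlap were Cxcr4 and Xcr1, both lower in miR-214-/-, beside 5.94% of all genes. Cxcr4, the receptor for the marrow chemokine CXCL12, had 190, 235 and 238 CPM in WT and 108, 179 and 123 CPM in miR-214-/- (log2 fold change -0.69, SE 0.20). Xcr1, a receptor known from cross-presenting dendritic cells, had 7.03, 8.66 and 10.6 CPM against 5.69, 4.16 and 5.06 CPM (-0.82, SE 0.22).

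Of 22 cytokines 15 were tested, 8 above and 7 below 0 (median 0.04). Lta, lymphotoxin alpha, was the 1 of 15 without overlap (11.5, 11.7 and 8.22 CPM against 13.7, 15.6 and 14.1 CPM), a share under the 8.01% of all genes. Among 21 cytokine receptors 16 were above 0 (median 0.09), with 2 higher and 1 lower without overlap, beside 8.01% and 5.94% of all genes. Il6st, the signaling chain shared by the IL-6 family, had 347, 322 and 323 CPM in WT and 354, 419 and 412 CPM in miR-214-/-, and Il18r1, the receptor for IL-18, differed by 0.30 (SE 0.12). Of 19 tested genes of the TGF-beta pathway 15 were above 0 (median 0.11). Tgfbr3, the co-receptor betaglycan, had 54.8, 62.2 and 51.5 CPM against 65.6, 72.0 and 79.2 CPM (0.37, SE 0.10). It was the 1 of 19 without overlap, a share under the 8.01% of all genes. Smurf1, a ubiquitin ligase that degrades Smads, overlapped (0.41, SE 0.13), as did Ltbp1, which holds latent TGF-beta in the matrix (-1.50, SE 0.64). Leukocyte integrins and adhesion genes were near 0 as a list (20 genes, 13 above, median 0.06). Over the 6 leave-outs the medians of these lists ranged from -0.05 to 0.17 for cytokines, from 0.04 to 0.20 for their receptors, from 0.05 to 0.23 for the TGF-beta pathway and from 0.02 to 0.20 for integrins.

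Of 15 angiotensin and steroid receptors and their partners 9 were tested, with a median of 0.01 and 0 without overlap. Agtr1a, the main receptor of Ang II in the mouse, was low and uneven, at 3.41, 8.13 and 6.69 CPM in WT and 5.29, 1.27 and 0.306 CPM in miR-214-/- (log2 fold change -1.39, SE 0.87). With 1 library left out its log2 fold change ranged from -2.91 to -0.88. Nr3c1, the glucocorticoid receptor, had 191, 193 and 184 CPM against 165, 201 and 199 CPM, and Nr3c2, the mineralocorticoid receptor, differed by 0.05 (SE 0.19). Sgk1, a kinase induced by glucocorticoids and mineralocorticoids, had 109, 148 and 157 CPM in WT and 144, 228 and 256 CPM in miR-214-/- (0.60, SE 0.23), with replicate 1 within the WT range. Of 11 heat shock chaperones 9 were below 0 (median -0.24). Without miR-214-/- replicate 1, where 12 chaperones were tested, the median was -0.51. Of the 11, 2 were lower without overlap, beside 5.94% of all genes. Hsph1, a co-chaperone of Hsp70, was 1 of these 2 (167, 287 and 201 CPM against 112, 127 and 147 CPM), whereas Hsp90aa1 overlapped (556, 820 and 814 CPM against 621, 476 and 468 CPM). The 15 tested genes of the BCL2 family had a median of -0.07, with 1 lower without overlap, beside 5.94% of all genes.

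**Figure D4:**
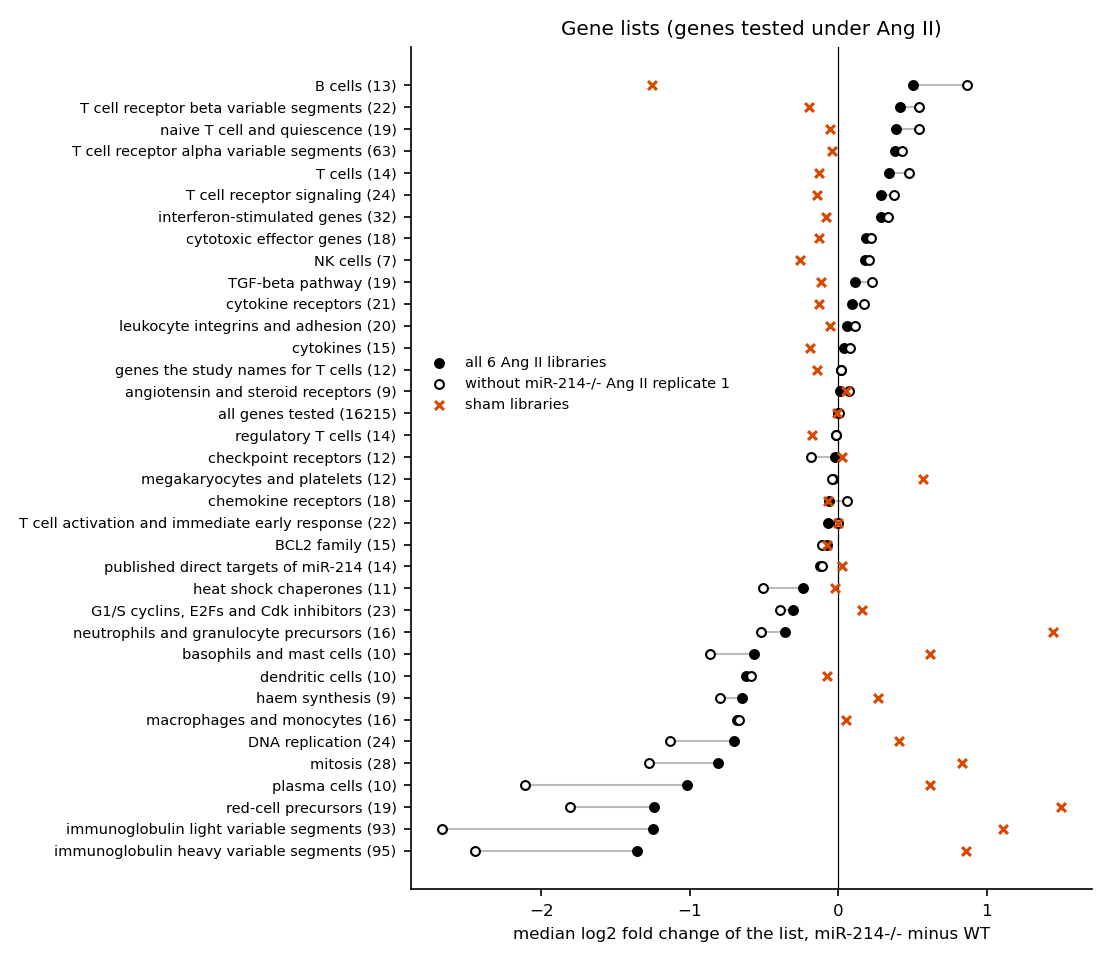
Median log2 fold change of miR-214-/- minus WT (x axis) for each gene list (y axis, number of genes tested under Ang II in brackets), with all 6 Ang II libraries (filled), without miR-214-/- Ang II replicate 1 (open) and in sham (crosses). The mitosis list moves from -0.81 to -1.27 when that library is left out and is at 0.84 in sham, while the T cell receptor signaling list moves from 0.29 to 0.38 and is at -0.14 in sham.

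Markers of cells that do not belong to a T cell preparation differed between the libraries too. All 19 tested red-cell precursor markers were below 0 (median log2 fold change -1.24), and 4 did not overlap, beside 5.94% of all genes. Tfrc, the transferrin receptor of dividing cells and erythroid precursors, had 168, 311 and 254 CPM in WT and 167, 110 and 89.4 CPM in miR-214-/-. Slc4a1, the anion exchanger of the red-cell membrane, had 449, 490 and 239 CPM against 127, 259 and 56.8 CPM, and Epb42, a membrane skeleton protein, 42.0, 44.3 and 25.5 CPM against 15.6, 25.4 and 5.85 CPM. In these 3 genes WT values varied by about 2-fold or less. Those of miR-214-/- varied more widely for Slc4a1 (56.8 to 259 CPM) and Epb42 (5.85 to 25.4 CPM), but not for Tfrc (89.4 to 167 CPM). The list mean was 6.88, 7.26 and 6.49 log2 CPM in WT and 5.99, 6.11 and 4.31 in miR-214-/-. The list median ranged from -1.81 without miR-214-/- replicate 1 to -0.79 without replicate 3. The count without overlap rose to 13 without miR-214-/- replicate 1, 11 without WT replicate 1 and 8 without miR-214-/- replicate 2. In the same order, 18.2%, 18.7% and 10% of all genes lay below all WT libraries. Hbb-bs, adult beta-globin, did not follow, with 2147, 572 and 190 CPM in WT and 113, 1977 and 228 CPM in miR-214-/-. Of 9 haem synthesis genes 8 were below 0 (median -0.65, 0 without overlap). The count was 6 without miR-214-/- replicate 1, beside 18.2% of all genes, and 6 without WT replicate 1, beside 18.7%. Dividing red-cell precursors express cell-cycle genes too, and their part in the cell-cycle lists was not tested. With the red-cell marker level of each library as a covariate, edgeR again called 0 genes and 418 had an unadjusted p under 0.05. The median log2 fold change went from -0.81 to -0.46 for mitosis, from -0.70 to -0.36 for DNA replication and from 0.29 to 0.13 for T cell receptor signaling. It went from 0.51 to 1.95 for the B cell markers and from -0.36 to 0.50 for the neutrophil markers. The covariate was lower in all 3 miR-214-/- libraries than in WT, so this fit cannot separate it from genotype.

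Of the 16 neutrophil and granulocyte markers all were below 0 (median -0.36), with 0 without overlap. S100a9, a calcium-binding protein of neutrophils, had 714, 246 and 312 CPM in WT and 182, 845 and 69.5 CPM in miR-214-/-. Without miR-214-/- replicate 2, which was high in these markers, the median was -1.75 and 10 did not overlap, beside 10% of all genes. The median was -0.13 without WT replicate 1, -0.65 without WT replicate 2 and -0.18 without miR-214-/- replicate 3. Macrophage and monocyte markers (16 of 16 below 0, median -0.68, 0 without overlap) lay on the same side. So did basophil and mast cell markers (10 of 10 below 0, median -0.57, 1 without overlap, beside 5.94% of all genes). The macrophage median was 0.33 without WT replicate 1. Without WT replicate 2 it was -1.13, with 7 without overlap, beside 9.73% of all genes. The basophil marker without overlap was Hdc, the enzyme that makes histamine (28.4, 25.0 and 24.3 CPM against 17.5, 21.2 and 7.82 CPM). The basophil median was -0.33 when miR-214-/- replicate 2 was left out. Without replicate 1 it was -0.87, with 7 of 10 without overlap, beside 18.2% of all genes. Of 10 dendritic cell markers 9 were below 0 (median -0.62, but -0.28 without WT replicate 1), and Clec9a (7.98, 10.2 and 10.5 CPM against 6.20, 4.27 and 3.93 CPM) and Xcr1 did not overlap, beside 5.94% of all genes. Megakaryocyte and platelet markers were centred near 0 (median -0.03), with Gp1ba, a subunit of the platelet receptor for von Willebrand factor, higher in all 3 miR-214-/- libraries (3.80, 4.21 and 4.66 CPM against 5.92, 6.08 and 6.37 CPM). It was the 1 of 12 without overlap, near the 8.01% of all genes.

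B cell and plasma cell markers lay on opposite sides of 0 with all 6 libraries and in every leave-out but that of miR-214-/- replicate 2. Of 13 B cell markers 12 were above 0 (median 0.51), and all 13 overlapped, with replicate 2 of miR-214-/- alone at a high level. Without that library the median was -0.87, with 9 below all WT libraries, beside 10% of all genes, and that of the plasma cell markers -0.78. The B cell median was 0.87 without miR-214-/- replicate 1 and 0.93 without miR-214-/- replicate 3. Pax5, the B cell identity factor, ranged from 14.1 to 22.7 CPM in WT and had 73.0 CPM in miR-214-/- replicate 2 and 8.64 CPM in replicate 3, and Ighd, the IgD heavy chain, 19.9, 28.7 and 17.6 CPM against 12.5, 89.6 and 13.1 CPM. The exception was Ighm, the IgM heavy chain of B and plasma cells, with 1405, 2842 and 4509 CPM in WT and 3226, 939 and 461 CPM in miR-214-/-. All 10 plasma cell markers were below 0 (median -1.02, 0 without overlap), including Igha, the IgA heavy chain (654, 2083 and 1920 CPM against 912, 326 and 250 CPM). The plasma cell median was -2.11 without miR-214-/- replicate 1, -0.59 without replicate 3 and -0.57 without WT replicate 3. The count without overlap was 8 without miR-214-/- replicate 1, beside 18.2% of all genes, and 9 without WT replicate 1, beside 18.7%. Immunoglobulin variable segments were below 0 in 90 of 95 heavy and 88 of 93 light segments, with medians of -1.36 and -1.25, and 15 and 14 of them did not overlap, beside 5.94% of all genes. These medians ranged from -2.45 and -2.67 without miR-214-/- replicate 1 to -0.85 and -0.75 without WT replicate 3.

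Genes beside the deleted locus were examined, since a knockout line can carry flanking chromosome from the strain in which it was made. Within 5 Mb of Mir214 on chromosome 1, 76 genes were tested and 0 were called. An unadjusted p under 0.05 was reached by 11 of them (14.5%), beside 8.56% of all genes, and by 12 in sham (15.8%), beside 6.67%. Within 2 Mb the share was 8.57% (3 of 35) under Ang II and 25.7% (9 of 35) in sham, and within 10 Mb it was 12% (22 of 183) and 9.89% (18 of 182). The 4 genes with such a p in both comparisons were Cop1, Zbtb37, Gas5 and Cenpl. Zbtb37, a zinc finger protein, had 58.9, 66.0 and 62.9 CPM in WT and 74.9, 72.2 and 79.2 CPM in miR-214-/- under Ang II (log2 fold change 0.27) but a log2 fold change of -0.27 in sham, and Cop1, a ubiquitin ligase (-0.25 and 0.18), and Cenpl, a centromere protein (-0.49 and 0.51), changed sign as well. Gas5, a non-coding host of small nucleolar RNAs, was below 0 in both (-0.57 and -0.40) and had 196, 298 and 268 CPM in WT and 210, 148 and 152 CPM in miR-214-/- under Ang II. Of these 4 genes Gas5 alone had the same direction in both treatments.

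The comparison in sham uses other libraries and gives the background of genotype without Ang II. There edgeR called 3 of 15913 genes (0.0189%), all lower in miR-214-/-, and 1061 (6.67%) had an unadjusted p under 0.05, of which 678 (4.26%) were higher and 383 (2.41%) lower. The called genes were H2-T10 and the pseudogene Gm8810, neighbours in the class Ib histocompatibility region of chromosome 17, and BC147527 on chromosome 13. H2-T10 had 180, 222 and 198 CPM in WT sham and 101, 90.0 and 101 CPM in miR-214-/- sham (log2 fold change -1.04, SE 0.09, adjusted p 0.0208 by edgeR). Under Ang II it had 67.4, 77.7 and 148 CPM in WT and 75.4, 86.7 and 199 CPM in miR-214-/-, so that replicate 3 of each group was high and the genotypes overlapped. BC147527 had 8.68, 10.2 and 12.8 CPM in WT sham and 1.58, 1.25 and 1.72 CPM in miR-214-/- sham (-2.79, SE 0.22), but 6.43, 1.03 and 5.46 CPM in WT Ang II and 6.63, 10.1 and 7.51 CPM in miR-214-/- Ang II. For BC147527 all 3 miR-214-/- libraries thus lay below WT in sham and above it under Ang II. The difference between the treatments did not pass edgeR's interaction test in either gene (log2 difference 1.34, adjusted p 0.271, for H2-T10, and 3.70, adjusted p 0.213, for BC147527). Gbp2b, an interferon-inducible GTPase, had an edgeR adjusted p of 0.0208 in sham (46.8, 53.8 and 51.5 CPM in WT, 107, 90.6 and 106 CPM in miR-214-/-) and overlapped at 40.7, 76.3 and 38.7 CPM against 65.7, 53.0 and 106 CPM under Ang II. Its log2 fold change was 0.996 in sham and 0.53 (SE 0.34) under Ang II, in the same direction, and their difference of -0.47 did not pass the interaction test (edgeR adjusted p 0.566).

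Several genes had reads in some libraries of a group and few or none in others. Counting genes with at least 30 counts in one library and at most 3 in another of the same Ang II group, a rule chosen after the data were seen, gave 85 genes, of which 25 were antigen receptor segments, which differ between mice by clonal rearrangement, and 60 were others. This pattern of counts occurred in 52 genes within WT, in 44 within miR-214-/- and in 11 within both. Among the 60 others was Tnfrsf17, one of the plasma cell markers, with 48, 13 and 3 counts in miR-214-/- Ang II. Gm8810 had 59, 77 and 77 counts in WT sham, 0 in each miR-214-/- sham library, 0, 0 and 54 in WT Ang II and 0, 0 and 74 in miR-214-/- Ang II. Klk1b22, a kallikrein-related peptidase on chromosome 7, had 554, 1133 and 0 counts in WT Ang II and 0 in each miR-214-/- Ang II library, but 321, 0 and 717 in WT sham and 1, 844 and 369 in miR-214-/- sham. Frmpd1, a scaffold protein on chromosome 4, had 34, 47 and 57 counts in miR-214-/- sham against 0 in each miR-214-/- Ang II library, and 3, 55 and 3 in WT Ang II. Ccnb1ip1, a ubiquitin ligase of meiotic crossing-over on chromosome 14, had 143, 260 and 161 counts in WT Ang II and 171, 0 and 0 in miR-214-/- Ang II. These genes divided mice within a genotype. Whether the mice differed in strain background, or the libraries in carried-over cells, was not tested.

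**Figure D5:**
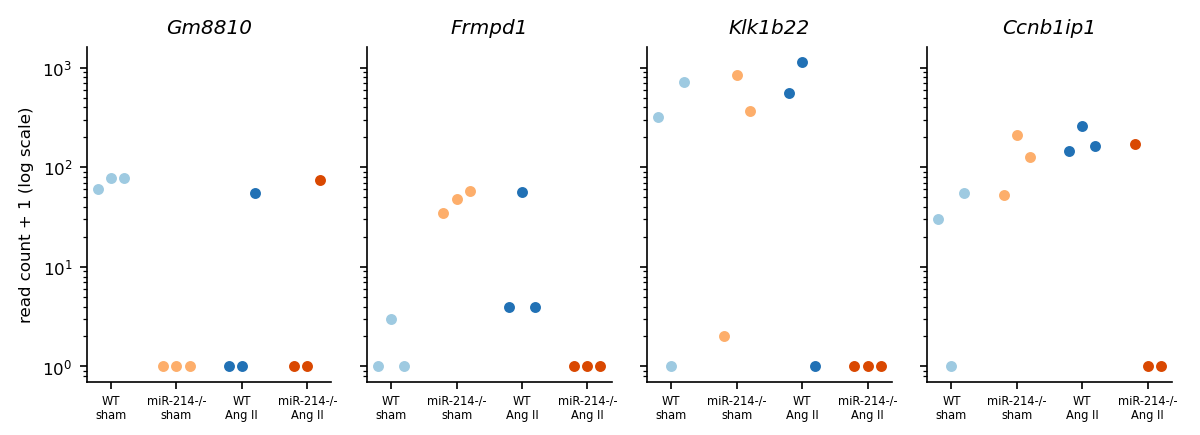
Read counts plus 1 (log y axis) of 4 genes in the 12 libraries, in 4 groups on the x axis with replicates 1 to 3 from left to right. Gm8810 was at 0 in all 3 miR-214-/- sham libraries and in 2 of 3 libraries of each Ang II group, and Klk1b22 was at 0 in WT Ang II replicate 3 while replicates 1 and 2 had 554 and 1133 counts.

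Across the 15608 genes tested in both, the log2 fold changes of genotype under Ang II and in sham were inversely related (Pearson's r = -0.525, Spearman's rho = -0.47, across genes, which are not independent replicates), and 31.6% had the same sign. The comparisons share no library. The difference between them was tested as the interaction of genotype and treatment over all 12 libraries, where edgeR called 1 of 16770 genes (0.00596%). That gene was Frmd4a, with 18.1, 19.9 and 17.0 CPM in WT sham and 25.0, 28.5 and 26.9 CPM in miR-214-/- sham, against 46.9, 50.6 and 43.0 CPM in WT Ang II and 26.0, 24.8 and 21.4 CPM in miR-214-/- Ang II. miR-214-/- mice thus had more Frmd4a than WT in sham and less under Ang II, without overlap in either. The log2 fold change of genotype was 0.55 (SE 0.11) in sham and -0.96 (SE 0.11) under Ang II, and their difference was -1.51 (SE 0.15, adjusted p 0.0109 by edgeR). Leaving out replicate 1 of miR-214-/- Ang II, a library singled out after its values were seen, brought the interaction to 919 called genes of 17172 tested. Leaving out any other library gave 0 to 3 called genes.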

How the data were processed

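The authors isolated poly(A) RNA from splenic T cells, mapped paired reads to GRCm38 and deposited raw read counts per gene, made with featureCounts (Subread 1.5.2 per the submitters' processing notes) from uniquely mapped exonic reads. The annotation release and strand setting are not given in the sources used here. IDs were matched to GENCODE annotation of GRCm38 (48970 of 49315). Groups follow the sample labels, with 3 mice per group. Members and gene lists were chosen with earlier results of these data known.

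Counts were filtered with filterByExpr, scaled by TMM and tested with edgeR 4.0.16 in R 4.3.3 (quasi-likelihood, Benjamini-Hochberg, adjusted p under 0.05 and absolute log2 fold change over 1; the interaction without the fold limit), separately in the 6 Ang II and 6 sham libraries. DESeq2 1.42.0 was the alternative. CPM were scaled with TMM over 12 libraries, and log2 CPM used a prior count of 2. Totals were 21126874 to 29605988 counts per library. The fits were tested on simulated data. Within-group libraries differed by more than sampling noise. Named genes were the 12 per direction described in the text, per list the 3 members of smallest p and the most abundant one, the genes the study names, and those near the locus or called for the interaction. Alternatives were other scalings, filters and fits, a replicate block, a red-cell marker covariate and leaving out each library in turn. Some genes are not reported here.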

Additional observations from a re-analysis of the deposited data

Results flagged for a closer look

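Frmd4a was flagged because the genotype effect differed between Ang II and sham by a test of the difference itself. The log2 fold change of miR-214-/- against WT was -0.96 under Ang II and 0.55 in sham, and the difference was -1.51 (edgeR's interaction test, adjusted p 0.0109). Over 21 alternative settings the difference lay between -1.57 and -1.22, and its adjusted p was under 0.05 in 16 of them. Leaving out each library in turn kept it under 0.05 in 8 of 12 cases, and the highest adjusted p, 0.359, came with the red-cell marker level as a covariate. Beyond leaving out each library, groups of 3 libraries were not examined for single outlying values.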

How the results depend on the processing

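Between miR-214-/- and WT under Ang II, 0 genes were called by edgeR under every scaling, filter and fit tried. In the fit over all 4 groups Frmd4a alone had an adjusted p under 0.05 (0.0312 by edgeR), without passing the fold limit. Leaving out 1 library gave 0 to 1 called genes. The 1 call, Rps3a3, a pseudogene named after its value was seen, came without WT Ang II replicate 1. DESeq2 called 21, and 841 without miR-214-/- Ang II replicate 1 (37 higher and 804 lower), a setting chosen after seeing the data. That library decides most: without it 3390 genes had an unadjusted p under 0.05 and the smallest edgeR adjusted p was 0.0546, against 591 to 1801 genes without any other library. In sham the 3 calls became 45 with DESeq2, 9 without a filter, 5 with a robust fit, and 0 with glmTreat, with all 4 groups in 1 fit or with a replicate block, and 0 to 30 with 1 library left out (30 without miR-214-/- sham replicate 1, 13 without replicate 2, and 0 without miR-214-/- replicate 3 or WT replicates 2 or 3). The interaction went from 1 to 444 with DESeq2, to 0 with the red-cell covariate, and to between 0 and 919 with 1 library left out (919 without miR-214-/- Ang II replicate 1, 3 without miR-214-/- sham replicate 1, 2 without WT Ang II replicate 2). The cause of these differences was not tested. Genes near the locus gave 0 calls throughout.

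Samples share only a replicate number. Deviations of same-numbered Ang II libraries correlated at -0.425, -0.165 and -0.119, so the numbers do not pair them. With the replicate block, 0 genes were called under Ang II (733 at an unadjusted p under 0.05) and 1 for the interaction.

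Of 1780 alternative log2 fold changes for 99 named genes, 1708 kept their direction and side of the threshold, 29 passed it with DESeq2, and 43 turned direction, in genes with adjusted p-values well above 0.05. With the red-cell covariate, values turned to 0.07 for Epb42 and Ighm, 1.29 for Hbb-bs, 1.37 for S100a9, 0.10 for Hdc, 0.19 for Tnf, -0.15 for Ccr4, 0.31 for Ccr6, -0.17 for Cxcr3, -0.97 for H2-T10, 0.97 for Ccnb1ip1 and 0.35 for Agtr1a. Ccr6 was at 0.00 with the adjusted-deviance fit. DESeq2 without miR-214-/- Ang II replicate 1 gave 0.17 for Hbb-bs, 0.09 for S100a9, -0.11 for Ccl5, -0.22 for Ifng, 0.11 for Ccr6 and 0.06 for Nr3c1. With 1 library left out the ranges were -2.51 to 1.03 (Hbb-bs), -1.75 to 0.39 (S100a9), -0.87 to 1.23 (Pax5), -0.78 to 1.22 (Ighd), -0.12 to 0.08 (Tgfb1), -0.09 to 0.54 (Ccl5), -0.21 to 0.27 (Ifng), -0.40 to 0.35 (Ccr2), -0.01 to 0.21 (Ccr4), -0.36 to 0.17 (Ccr6), -0.01 to 0.30 (Cxcr3), -0.06 to 0.08 (Nr3c1), -0.02 to 0.14 (Nr3c2) and -0.26 to 0.74 (H2-T10). Medians of the 31 lists moved past the replicate spread in 17 of 527 alternatives.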
